A study of Mus musculus with 4 samples.

Results

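The CC chemokines are small secreted proteins with adjacent cysteines near their start, which draw leukocytes toward the cells that make them by way of G protein-coupled receptors. Macrophages that sense lipopolysaccharide (LPS), a component of the bacterial cell wall, release several of them within hours. Some ligands, such as CCL2 and CCL7, recruit monocytes through the receptor CCR2. Others, such as CCL3, CCL4 and CCL5, act on monocytes and T cells, and CCL22 and CCL24 act on T helper 2 cells and eosinophils through CCR4 and CCR3.

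The genes described here were 9 CC chemokine genes, Ccl2, Ccl3, Ccl4, Ccl5, Ccl6, Ccl7, Ccl9, Ccl22 and Ccl24, found by gene symbol among the 11111 genes of the deposited table. The 4 RNA sequencing libraries came from C57BL/6 bone marrow cells grown into macrophages over 7 days, with fresh medium on day 4, and all 4 were stimulated with LPS at 10 ng/ml for 4 hours. Before that, 2 libraries' cells had a control morpholino (Ctrl MO) and 2 had morpholinos against Regnase-1 (Reg1-MOs), at 2 µM for 24 hours with the delivery peptide Endoporter at 6 µl/ml. A morpholino is a synthetic antisense oligomer. Regnase-1, encoded by Zc3h12a, is an RNase that cuts inflammatory mRNAs, its own included, at stem-loops in their 3' untranslated regions (3' UTRs). No library without LPS or without a morpholino was analysed here, so every value is a level in LPS-stimulated, transfected cells. Nothing in the labels ties the replicates to separate mice or cultures, so a p-value here reflects the spread between libraries, which may be technical. For the 2 Reg1-MOs libraries the table's headings read MO1 and MO2, also the names of the morpholinos, and whether each library received 1 of them or both is not settled. Where the morpholinos bind is not given in the labels.

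The table held 23369753 to 25213695 reads per library. Zc3h12a had 3407 and 3572 reads in the Ctrl MO libraries, against 7799 and 6753 in the Reg1-MOs ones, a rise of 1.10 on the log2 scale (limma SE 0.07, adjusted p = 4.008e-04). All 12 macrophage markers looked up, among them Adgre1, Csf1r, Cd68 and Lyz2, were in the table, with a median log2 fold change of -0.01. Of these, Cd68 rose by 0.34, and Itgam and Lyz2 fell by 0.67 and 0.27 (limma adjusted p = 0.0220, 0.00302 and 0.0365). The Cd68 call ended when either control or replicate 1 of Reg1-MOs was left out and when no variance trend was fitted (adjusted p from 0.0796 to 0.210), and that of Lyz2 when any 1 library or the trend was left out (0.0532 to 0.355) and with quantile normalization (0.0885). The Itgam call ended in 1 of 11 alternatives, without the trend (0.0585). Markers of other cells were also read: 11 of 14 stromal and fibroblast markers were in the table and all 11 fell, with collagen gene Col1a1 at -1.78, Acta2 at -1.51, a median of -1.49 and a summed level of 339.7 and 358.8 normalized reads with Ctrl MO (reads per 1000000 of the library size that the deposited scale implies) against 129.5 and 152.5 with Reg1-MOs. When 1 library was left out 10 or 11 of them still passed, and 9 did without the trend. Over all genes, 6.22% passed as higher and 6.03% as lower. None of the 11 stromal markers was at 0 in a library, and Lum, Pdgfra and Thy1 were not among the genes listed. In bulk RNA, fewer cells of a type and less RNA per cell cannot be told apart.

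Sequence features of the messages come first, since Regnase-1 acts through 3' UTRs. In the principal GENCODE M21 transcript of each gene, a hairpin of 5 Watson-Crick pairs closing a 3-base loop of pyrimidine, purine and pyrimidine, the shape Regnase-1 is known to prefer, was searched on the transcript strand. It was found in 2 of the 9 genes, Ccl2 and Ccl4, and in 23% of 10827 transcripts of the table's genes. Among 3' UTRs within 20% of the same length, 5.33% held one for Ccl2 and 6.41% for Ccl4. They are shown because no other such hairpin was found in these 9 messages, with the loop in capitals and T for U:
Ccl2, chromosome 11, base 253 of the 275-base 3' UTR: aaataTATtattt
Ccl4, chromosome 11, base 200 of the 302-base 3' UTR: tctccCATggaga

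The pentamer ATTTA, the core of the AU-rich elements that decay proteins such as tristetraprolin bind, was found in 7 of the 9 messages, against 68.4% of all 10827. Ccl3 had 5 copies in 409 bases, a number reached by 0.86% of 3' UTRs of like length, and Ccl9 had 5 in 2465 bases, reached by 41.4%. Ccl6 had 4, Ccl4, Ccl7 and Ccl22 had 2 each, Ccl2 had 1, and Ccl5 and Ccl24 had none in 199 and 858 bases. At least as many were in 12.5% of 3' UTRs of like length for Ccl6, 13.9% for Ccl4 and 18.3% for Ccl7. For Ccl2 and Ccl22 the shares were 36.8% and 72%. A nonamer that contains this pentamer, TTATTTA followed by 2 bases that are each A or T, occurred once in Ccl3 and at 2 places in Ccl7. Among 3' UTRs of like length, 5.48% held this nonamer for Ccl3 and 6.17% for Ccl7. The 30-base windows with the most pentamers in Ccl3, where copies were dense for its length, and in Ccl6 are shown with each pentamer in capitals:
Ccl3, chromosome 11, from base 139 of the 3' UTR: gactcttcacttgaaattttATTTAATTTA
Ccl6, chromosome 11, from base 65 of the 3' UTR: ccttgtttttatagatATTTAaagcATTTA
A match is a run of letters and not a measured binding site.

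With Reg1-MOs, 4 of the 9 genes passed as lower (limma, adjusted p under 0.05): the CCR4 ligand gene Ccl22 by 2.08-fold, the CCR3 ligand gene Ccl24 by 2.89-fold, and the monocyte-recruiting Ccl2 and Ccl7 by 1.33-fold and 1.44-fold. These 4 are 44.4% of the members, while 12.2% of all genes passed in either direction and 6.03% fell. No member passed as higher, where 6.22% of all genes did; at an unadjusted p under 0.05, 1 was higher and 6 were lower, and with voom weights 0 were higher and 5 lower. The 4 falls became 2, Ccl22 and Ccl24, without a variance trend, without Ctrl MO replicate 1 and without either Reg1-MOs library. The 4 most abundant genes, Ccl3, Ccl4, Ccl5 and Ccl9, did not pass. The members' median log2 fold change was -0.26, against -0.03 over all genes.

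**Figure D1:**
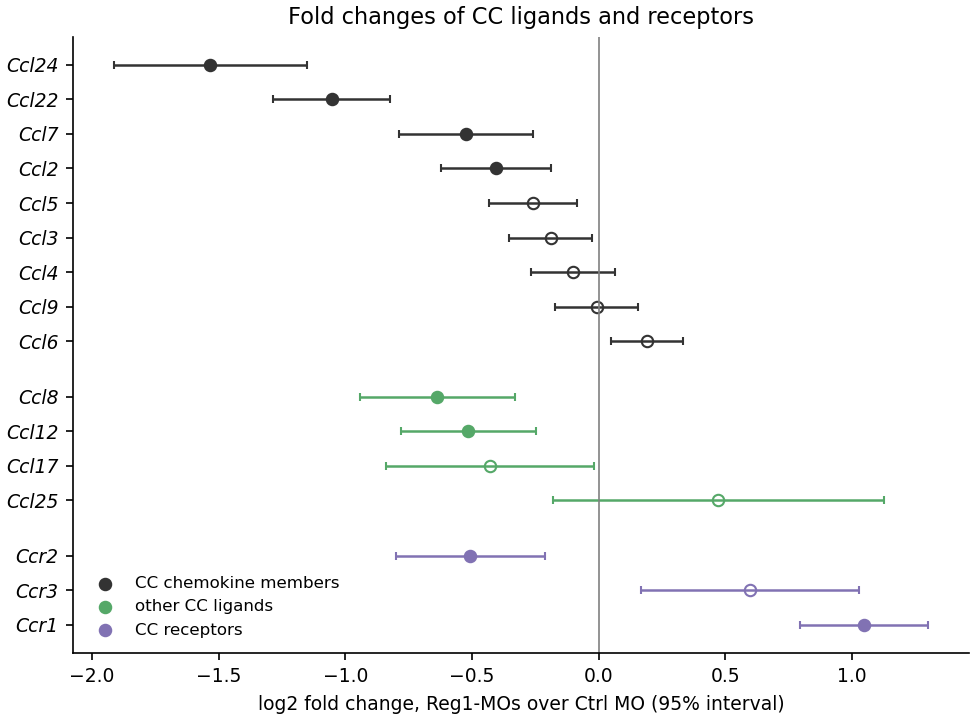
Log2 fold change of the CC ligand genes and of the receptor genes Ccr1, Ccr2 and Ccr3, Reg1-MOs over Ctrl MO, with its 95% moderated interval (2 libraries per group); filled points passed an adjusted p of 0.05. Ccl24 and Ccl22 lie at -1.53 and -1.05, and Ccl6 at 0.19. Ccl25, with 19 and 15 reads in the Ctrl MO libraries against 24 and 22 in the Reg1-MOs ones, lies at 0.47 and did not pass. The receptors span from -0.51 (Ccr2) to 1.05 (Ccr1).

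Per kilobase of exon, Ccl3, which encodes the neutrophil- and monocyte-attracting MIP-1alpha, was the highest with Ctrl MO, at 6234 ± 318 normalized reads per kilobase (SD, n = 2 libraries). Ccl4 followed at 4826 ± 219 and Ccl5, encoding RANTES, at 4018 ± 201. Ccl9, a CCR1 ligand that mouse macrophages make constitutively, stood at 946 ± 42.9. Ccl22 was at 193 ± 20.95, Ccl6 at 182 ± 0.654, Ccl2 at 153 ± 12.5, Ccl7 at 73.5 ± 7.13 and Ccl24 at 7.39 ± 0.568. Of neighbours in this order, only Ccl22 and Ccl6 had overlapping libraries with Ctrl MO. With Reg1-MOs the order changed at Ccl22, which at 92.9 ± 9.19 lay below Ccl6 (208 ± 2.54) and Ccl2 (116 ± 11.3), and no neighbours overlapped.

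**Figure D2:**
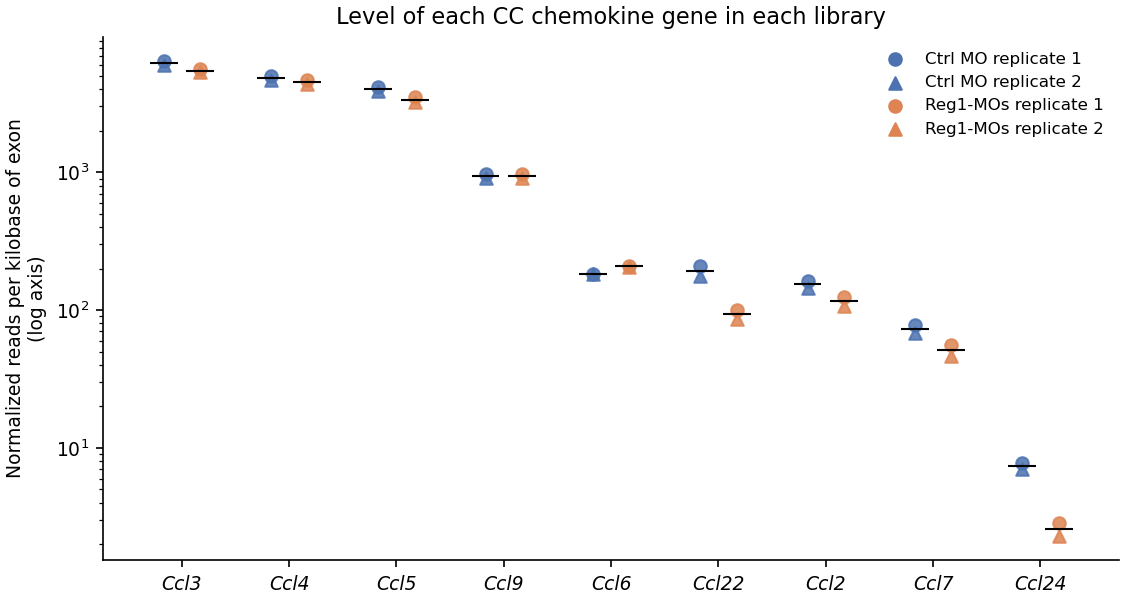
Normalized reads per kilobase of exon (log axis) for the 9 genes in each library; circles and triangles are replicates 1 and 2 and the lines are group means. Ccl3 has the highest mean in both groups (6234 and 5466) and Ccl24 the lowest (7.39 and 2.57), and Ccl22 moves from above Ccl6 to below Ccl2.

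Together the 9 genes took 1.25% and 1.15% of the reads in the table in the controls, against 1.14% and 1.03% with Reg1-MOs. The lower control and the higher Reg1-MOs library were close, at 1.146% and 1.139%. An exact two-sided permutation test of 2 against 2 libraries cannot go below p = 0.333, and these shares gave that value. Ccl3, Ccl4, Ccl5 and Ccl9 held 93.4% to 94.6% of the members' reads in each library.

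Ccl22 (ENSMUSG00000031779; chromosome 8, 94745590 to 94751699 on GRCm38, plus strand) encodes the ligand of CCR4, which macrophages and dendritic cells use to attract T helper 2 and regulatory T cells. It had 9213 and 7892 reads in the Ctrl MO libraries, against 4479 and 3570 in the Reg1-MOs ones. Both Reg1-MOs libraries lay well below both controls. The log2 change was -1.05 (limma SE 0.10, adjusted p = 0.00153), and it passed in 11 of 11 alternative analyses, between -1.16 and -0.94. Fscn1, the 1 dendritic cell marker of 10 in the table, fell in the same libraries by 0.67 (11698 and 10829 reads against 7604 and 6230; limma adjusted p = 0.00279), with Flt3, Zbtb46, Clec9a and Ccr7 not among the genes listed; its part in the Ccl22 result was not tested. The Fscn1 call ended without a variance trend (limma adjusted p = 0.0559). The 11 stromal markers fell in the same libraries too, and their part in the Ccl22 result was not tested.

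The promoter of Ccl22 is shown because the result turns on this gene. RefSeq's GRCm38.p6 table places it at chr8:94745434-94745733 on the plus strand, 250 bases before the RefSeq start to 50 after; GENCODE M21 puts the start 94 bases upstream, within this window. The window was searched on both strands for the NF-kappaB consensus, AP-1 (TGANTCA), STAT (TTCNNNNGAA), the interferon-stimulated element (GAAANNGAAA) and a TATA box (TATAAA), and these letters were not in it, so nothing is in capitals. Of 32851 promoter windows of this length, 8.46%, 7.81%, 6.95%, 3.44% and 13.6% held these motifs, in that order.
Ccl22: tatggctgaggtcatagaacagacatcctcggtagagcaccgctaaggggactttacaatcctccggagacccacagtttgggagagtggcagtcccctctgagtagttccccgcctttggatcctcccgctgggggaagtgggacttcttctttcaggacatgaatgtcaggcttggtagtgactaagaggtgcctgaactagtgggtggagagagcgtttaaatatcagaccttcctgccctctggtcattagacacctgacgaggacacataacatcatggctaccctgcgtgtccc

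Ccl17 encodes the other CCR4 ligand and lies 58753 bases from Ccl22. It had 231 and 177 reads in the Ctrl MO libraries, against 172 and 124 in the Reg1-MOs ones. The lower control and the higher Reg1-MOs library were close, and the log2 change of -0.43 (limma SE 0.18, adjusted p = 0.153) did not pass. The ratio of Ccl22 to Ccl17, which cancels the scale of a library, was 39.8 and 44.5 in the controls, against 26 and 28.7 with Reg1-MOs. It was lower in both Reg1-MOs libraries (exact permutation p = 0.333, the smallest that 2 against 2 libraries allow).

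Ccl24 (ENSMUSG00000004814; chromosome 5, 135569937 to 135573049, minus strand) encodes eotaxin-2, an eosinophil attractant of alternatively activated macrophages. It was the rarest member, with 192 and 172 reads in the Ctrl MO libraries, against 71 and 52 in the Reg1-MOs ones. The groups were far apart for these counts, with a log2 change of -1.53 (limma SE 0.16, adjusted p = 0.00211) that also passed in 11 of 11 alternatives, between -1.69 and -1.37. Against 9475 other genes averaging 50 reads or more, those whose log2 values over the 4 libraries, centred on their own mean, lay nearest to Ccl24 were Sparc (root mean square difference 0.05) and Cdh11 (0.0846). Sparc, which encodes a collagen-binding matrix protein, is 1 of the 11 stromal markers that fell, and Cdh11, a cadherin of mesenchymal cells, had a log2 change of -1.498 (limma SE 0.14, adjusted p = 0.00157). The part of stromal cells in the Ccl24 result was not tested.

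**Figure D3:**
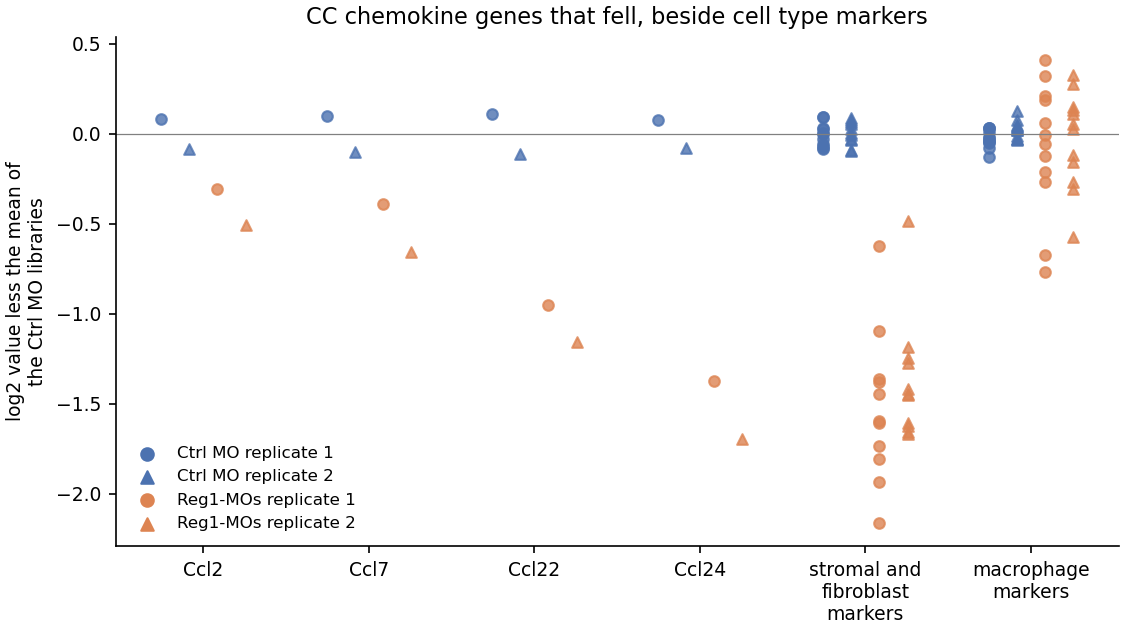
Log2 value of each gene less its mean over the Ctrl MO libraries, for the 4 CC chemokine genes that fell, 11 stromal and fibroblast markers and 12 macrophage markers; each point is 1 gene in 1 library. Ccl24 lies among the stromal markers (log2 fold changes from -1.92 to -0.55, median -1.49). Ccl22 (-1.05) also lies within that range, and Ccl7 (-0.52) and Ccl2 (-0.41) lie closer to 0. The macrophage markers lie on both sides of 0 (median -0.01).

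Ccl2 and Ccl7 encode MCP-1 and MCP-3, the CCR2 ligands that call monocytes out of the marrow and into tissue, and lie 8258 bases apart on chromosome 11. Ccl2 (ENSMUSG00000035385; 82035571 to 82037453, plus strand) had 3521 and 3135 reads in the Ctrl MO libraries, against 2730 and 2179 in the Reg1-MOs ones, a log2 change of -0.41 (limma SE 0.09, adjusted p = 0.0316). Ccl7 (ENSMUSG00000035373; 82045712 to 82047525, plus strand) had 1199 and 1044 reads against 867 and 662, a log2 change of -0.52 (limma SE 0.11, adjusted p = 0.0265). In both genes each Reg1-MOs library lay below each control, and the ratio of Ccl2 to Ccl7 moved little, from 2.94 and 3.00 to 3.15 and 3.29. Both calls held in 7 of 11 alternatives. They ended when Ctrl MO replicate 1 was left out (Ccl2 adjusted p = 0.187, Ccl7 0.0923), when Reg1-MOs replicate 1 (0.0656 and 0.0592) or 2 (0.0966 and 0.0881) was, and when no variance trend was fitted (0.139 and 0.123). Stromal cells can also make both ligands, and the 11 stromal markers fell in the same libraries; their part in these 2 results was not tested.

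The genes with the pattern nearest to Ccl2 were Dnal4 (root mean square difference 0.016) and Inafm1 (0.0191), neither of which passed. Those nearest to Ccl7 were Tuba1b (0.00802), encoding an alpha-tubulin, and Hmgn2 (0.0294), encoding a nucleosome-binding protein. Nearest to Ccl22 were Il1bos (0.0635) and Ptprm (0.0768), a receptor phosphatase gene. Il1bos is antisense to Il1b, and its reads cannot be told apart from those of Il1b where counting ignores strand, a setting not given in the sources used here.

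Further genes for MCP-type ligands follow Ccl7 on chromosome 11, Ccl12 at 54319 bases and Ccl8 beyond it by 11784. Ccl12, encoding a mouse CCR2 ligand, had 1441 and 1355 reads in the Ctrl MO libraries, against 1114 and 813 in the Reg1-MOs ones and fell by 0.51 (limma SE 0.11, adjusted p = 0.0282). Ccl8 had 202 and 177 against 127 and 110 and fell by 0.64 (limma SE 0.13, adjusted p = 0.0213). All 4 MCP genes of this stretch were thus lower in both Reg1-MOs libraries than in both controls, as were 31.8% of all genes. The 11 stromal markers fell in the same libraries, and their part in the Ccl12 and Ccl8 results was not tested. The Ccl12 call ended without Reg1-MOs replicate 2 (adjusted p = 0.0538) and without a variance trend (0.130). The Ccl8 call ended without Ctrl MO replicate 1 (0.119), without either Reg1-MOs library (0.0857 and 0.0693) and without a variance trend (0.0599).

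The other 5 members lie within 1 stretch of chromosome 11, from Ccl5 (ENSMUSG00000035042, start 83525778) through Ccl9, Ccl6 and Ccl3 to Ccl4 (end 83664683), and none passed by limma. Ccl3 (ENSMUSG00000000982; 83647844 to 83649355, minus strand) had 94367 and 87721 reads in the Ctrl MO libraries, against 83157 and 72525 in the Reg1-MOs ones, a log2 change of -0.19 (limma SE 0.07, adjusted p = 0.122). Its neighbour Ccl4 (ENSMUSG00000018930; from 83662584, plus strand), encoding the monocyte and T cell attractant MIP-1beta, had 62705 and 58763 against 59560 and 50925, a log2 change of -0.10 (limma SE 0.07, adjusted p = 0.380). For Ccl4 the lower control and the higher Reg1-MOs library were both at 11.59 on the log2 scale. The 95% intervals, -0.35 to -0.03 for Ccl3 and -0.27 to 0.06 for Ccl4, exclude a 2-fold change.

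Ccl5, a gene for a ligand of CCR1 and CCR3 that responds to NF-kappaB and interferon signals, had 76169 and 70911 reads in the Ctrl MO libraries, against 65210 and 54788 in the Reg1-MOs ones. Both Reg1-MOs libraries were lower, but the log2 change of -0.26 (limma SE 0.07, adjusted p = 0.0612) did not pass. It passed with quantile normalization (-0.34, adjusted p = 0.0191) and with voom weights (adjusted p = 0.0468).

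Ccl6 (ENSMUSG00000018927; 83587882 to 83593087) and Ccl9 (ENSMUSG00000019122; 83572919 to 83578636) are rodent CCR1 ligand genes 9245 bases apart. Ccl6 was the only member with both Reg1-MOs libraries above both controls, at 7288 and 6568 reads against 6250 and 6213, but its log2 change of 0.19 (limma SE 0.06, adjusted p = 0.0853) did not pass. Ccl9 had 56696 and 53127 reads in the Ctrl MO libraries, against 57418 and 49170 in the Reg1-MOs ones. Its groups overlapped, and its log2 fold change was -0.01 (95% interval -0.17 to 0.16, limma adjusted p = 0.958); the sign turned positive with quantile normalization (0.02), with equal totals (0.02), without Ctrl MO replicate 1 (0.04) and without Reg1-MOs replicate 2 (0.04). In 7 of the 9 genes both Reg1-MOs libraries lay below both controls, as in 31.8% of all genes, and in 1 of 9 both lay above, as in 27.1%.

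The starts of Ccl9 and Ccl6 are shown because these neighbours share sequence there. Of 67 aligned bases, 58 were identical (86.6%), and these are in capitals in the 120-base stretches below, which end 50 bases after each RefSeq start (GRCm38.p6, minus strand; chr11:83578587-83578706 for Ccl9 and chr11:83593038-83593157 for Ccl6). The full 300-base window of Ccl9 held 1 match to the NF-kappaB consensus, 35 bases before the start, and 1 to AP-1 (TGANTCA), 53 bases before it. It also held 3 matches to the TATA box letters. The windows of Ccl6 and Ccl3 held none of the 5 motifs. Promoters of Ccl2, Ccl4, Ccl5, Ccl7 and Ccl24 were not analysed here.
Ccl9: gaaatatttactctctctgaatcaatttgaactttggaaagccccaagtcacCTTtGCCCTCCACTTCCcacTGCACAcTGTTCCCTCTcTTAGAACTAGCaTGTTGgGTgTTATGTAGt
Ccl6: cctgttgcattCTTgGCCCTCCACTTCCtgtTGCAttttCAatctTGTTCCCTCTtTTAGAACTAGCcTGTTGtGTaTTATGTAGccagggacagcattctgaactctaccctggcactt

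Within each group the members also moved together between libraries. Replicate 1 exceeded replicate 2 in 9 of 9 members with Ctrl MO (median log2 difference 0.10) and in 9 of 9 with Reg1-MOs (0.13), whereas 45.3% and 48.3% of all genes did so. For Ccl22 these differences, 8.92 against 8.69 and 7.85 against 7.65 on the log2 scale, were well under the distance between the groups. For Ccl2 (7.53 against 7.36, and 7.14 against 6.94) they were closer to it in size. The cause was not tested.

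Receptors moved in both directions. Of 12 CC receptor genes looked up, 6 were in the table, and Ccr1, the receptor for CCL3, CCL5, CCL6 and CCL9, rose by 1.05 (limma SE 0.11, adjusted p = 0.00202), from 211 and 239 reads to 488 and 419. It passed in 11 of 11 alternatives. Ccr2, the receptor for CCL2 and CCL7, had 161 and 165 reads in the Ctrl MO libraries, against 113 and 110 in the Reg1-MOs ones and fell by 0.51 (limma SE 0.13, adjusted p = 0.0407), a call that ended without any 1 library (adjusted p from 0.0630 to 0.215) and without a variance trend (0.0595). The ratio of Ccr1 to Ccr2 was 1.31 and 1.45 in the controls, against 4.30 and 3.80 with Reg1-MOs. Ccr3, the CCL24 receptor, stood at 0.60 (adjusted p = 0.0756) and passed without Ctrl MO replicate 2 (0.89, adjusted p = 0.00113), with equal totals (0.0448) and with quantile normalization (0.0490). Ccr4, the receptor for CCL22, was not among the genes listed.

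Of 36 genes that carry chemokine receptor signals, 3 rose and 7 fell, with a median of -0.05. The shares over all genes were 6.22% for rises and 6.03% for falls. Rgs1, which damps G protein signals, rose by 0.86 (SE 0.09, adjusted p = 0.00192), and the receptor-silencing arrestin gene Arrb1 rose by 0.70 (SE 0.09, adjusted p = 0.00390). The Src-family kinase gene Fgr fell by 0.85 (SE 0.09, adjusted p = 0.00221) and Rgs16 by 0.66 (SE 0.10, adjusted p = 0.00617). These 4 passed by limma in 11 of 11 alternatives, while the 7 falls became 3 when replicate 1 of either group was left out, and 2 when Ctrl MO replicate 2 or the variance trend was.

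Proteases that can trim chemokines included 3 rises and 2 falls among 13 genes in the table (median 0.03), where 6.22% of all genes rose and 6.03% fell. Mmp13, a collagenase gene, fell by 0.72 (limma SE 0.07, adjusted p = 0.00170) and the gelatinase gene Mmp9 by 0.81 (SE 0.12, adjusted p = 0.00728). The cathepsin genes Ctss (0.50, SE 0.06, adjusted p = 0.00367) and Ctsd (0.46, SE 0.08, adjusted p = 0.0101) rose. Leaving out Ctrl MO replicate 2 or replicate 1 of Reg1-MOs left 1 of the 3 rises, and the Ctsd call ended (adjusted p = 0.0639 and 0.0547). Without a variance trend Mmp13 was the 1 call left: no gene rose (Ctss adjusted p = 0.0584, Ctsd 0.0845) and the Mmp9 call ended (0.0714).

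Among 20 transcription factor genes of chemokine induction, Irf5 (0.47) and Fos (0.41) rose and Irf8 (-0.31) fell, with a median of -0.05 and limma adjusted p of 0.00404, 0.0411 and 0.0265. For comparison, 6.22% of all genes rose and 6.03% fell. The Fos call ended without any 1 library (adjusted p from 0.0741 to 0.258), and that of Irf8 without either control or Reg1-MOs replicate 1 (0.0796 to 0.218); all 3 ended without a variance trend. Of 19 genes of the IL-4 and STAT6 response, which induces Ccl17, Ccl22 and Ccl24 in alternatively activated macrophages, 4 fell and 1 rose (median -0.16). The activation marker Cd83 (-0.46), the mannose receptor Mrc1 (-0.70) and the kinase Jak1 (-0.44) were among the falls and Klf4 (1.30) was the rise. Arg1, Retnla and Chil4 were not among the genes listed, and Stat6 did not pass. Leaving out Ctrl MO replicate 2 gave 2 falls, fitting no trend gave 1, and the Jak1 call ended when Ctrl MO replicate 2 (limma adjusted p = 0.0740) or replicate 1 of Reg1-MOs (0.0582) was left out.

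Genes near the members gave a local comparison. Of 17 other genes in the table within 100000 bp of a member, 3 fell and 1 rose. Over the whole table, 6.03% of genes fell and 6.22% rose. The falls were Ccl12, Ccl8 and Heatr9, which lies 3602 bases from Ccl5 and fell by 0.64 (limma SE 0.15, adjusted p = 0.0329; 0.104 without Reg1-MOs replicate 1). The rise was Por, encoding the electron donor of cytochrome P450 enzymes, 96983 bases from Ccl24, at 0.98 (limma SE 0.07, adjusted p = 7.22e-04). Hip1, Rhbdd2, Rspry1, Arl2bp, Ccl17, Ciapin1, Coq9, Mmp28, Wfdc17, Wfdc21 and Heatr6 did not pass. Cx3cl1, which encodes fractalkine and lies between Ccl22 and Ccl17, stood at -0.15 (adjusted p = 0.315). Taf15, 19034 bases from Ccl5 and beyond Heatr9, stood at 0.00 (adjusted p = 0.997).

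The CXC chemokine genes, whose products mainly attract neutrophils or activated T cells, gave another split. Of 11 in the table, 4 rose and 2 fell, with Cxcl1 at 1.54 (limma adjusted p = 1.26e-04) and Cxcl12 at -2.30 (adjusted p = 0.00221) at the ends. Among all genes, 6.22% rose and 6.03% fell. Cxcl12 had 92 and 70 reads in the Ctrl MO libraries, against 14 and 17 in the Reg1-MOs ones. The 11 stromal markers fell in the same libraries, and their part in the Cxcl12 result was not tested. Cxcl3, a neutrophil attractant gene, rose by 1.00 (adjusted p = 0.00295; 0.0657 without Reg1-MOs replicate 1), and the interferon-induced Cxcl9 fell by 0.67 (adjusted p = 0.00795). The median was 0.17, beside -0.26 for the CC members. The 4 CXC rises became 2 when Ctrl MO replicate 2 was left out and 1 when replicate 1 of Reg1-MOs was, and with no trend fitted 2 rose and 1 fell; the difference between the families was not tested.

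**Figure D4:**
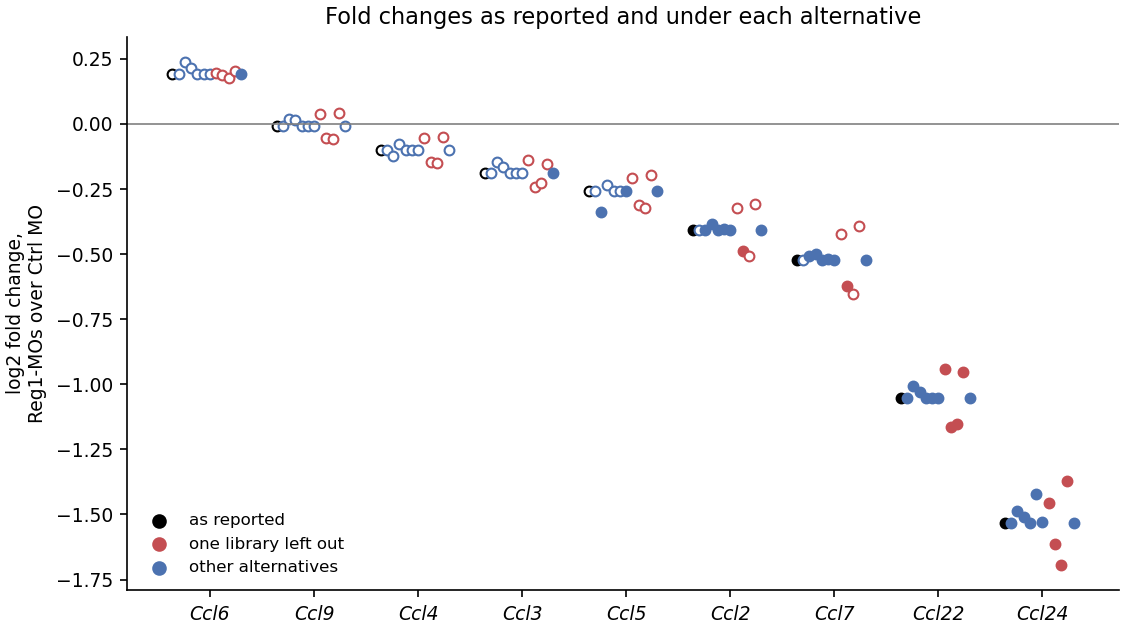
Log2 fold change (Reg1-MOs over Ctrl MO) of each member as reported and under 11 alternatives (black as reported, red with 1 library left out, blue the others); filled points passed an adjusted p of 0.05. Ccl22 and Ccl24 are filled throughout, Ccl2 and Ccl7 open in 4 alternatives each, Ccl4 and Ccl9 open throughout, and Ccl9 lies on both sides of 0.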

How the data were processed

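Per the labels, the 4 libraries were directional and sequenced on a NextSeq 500. The submitters' processing notes name cutadapt, FastQC, HISAT2 1.6.3 and build mm10. How reads were counted, filtered and normalized, and with which strand setting, is not given in the sources used here. Log2 values were deposited by the authors for 11111 genes in 4 libraries. Raised to the power of 2, 100% of them came out within 0.01 of whole reads plus 0.5 times a constant per library, so reads were recovered; normalized reads are per 1000000 of the library size this constant implies. The columns headed MO1 and MO2 were taken as Reg1-MOs replicates 1 and 2, though the labels also give these names to the morpholinos.

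Fold changes, SE and p come from limma 3.58.1 (R 4.3.3; variance trend, group only, two-sided) on the deposited values of all genes, with Benjamini-Hochberg adjustment and a threshold of 0.05. The design had allowed for linear values. The fit was also run on simulated counts that gave every gene the same spread setting. Real genes need not share such a setting, so that run does not bear on the calls made here. Levels per kilobase use the union of GENCODE M21 exons. The members and lists were chosen with earlier results of these data known. All members were named, with up to 4 genes of each list by smallest p. Neighbours within 100000 bp and the 2 nearest patterns of each member that passed were named too. Cxcl2 and other list members are given as counts. Of 5 other CC, XC and CX3C ligand genes in the table, 0 rose and 2 fell (Ccl8 and Ccl12), and Ccl25 did not pass. Stat6, Ccr3 and Ccr4 were named after their values were seen, and some list members are not reported here. Of the other lists, 4 of 10 decay protein genes rose (Zc3h12a, Zfp36l2, Zc3h12d and Zfp36l1; 2 when replicate 1 of either group was left out, 1 with no variance trend), and Cx3cr1, the 1 scavenging or other receptor gene in the table, did not pass. Cx3cr1 had 8 and 10 reads with Ctrl MO against 2 and 1 with Reg1-MOs (log2 change -2.25, limma adjusted p = 0.0526). It passed as lower with equal totals, with voom weights, with a replicate block and without a variance trend. Of 9 neutrophil, 3 lymphocyte, 1 mast cell and 1 erythroid marker in the table, 0, 1, 0 and 0 rose and 0, 1, 1 and 0 fell. The lymphocyte fall (Lck) ended without Reg1-MOs replicate 2 (limma adjusted p = 0.0571) and without the trend (0.108), and the mast cell fall (Kit) without any 1 library (0.0701 to 0.217), with quantile normalization, with voom weights and over genes averaging at least 50 reads (0.0513 to 0.0573).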

Additional observations from a re-analysis of the deposited data

How the results depend on the processing

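With 2 libraries per group, 11 alternatives were run, and of 99 member values 82 kept their direction and side of the threshold, 4 (all of Ccl9, which never passed) changed sign, 8 no longer passed and 5 passed in addition; Ccl22 and Ccl24 passed in each. Without a variance trend 195 genes rose and 182 fell, 2 members fell, and 7 pathway genes rose and 6 fell, against 691, 670, 4, 18 and 19 as reported. Leaving out 1 library gave 249 to 530 rises and 258 to 860 falls over all genes, 2 to 4 falls among members, and 9 to 15 rises and 10 to 19 falls among pathway genes. The labels do not say that replicate numbers pair the libraries; deviations from the group means correlated at 0.0958 between same-numbered libraries. With a replicate block, 1532 genes rose and 1891 fell, 1 member (Ccl6) rose and 6 fell (Ccl3 and Ccl5 in addition), and 31 pathway genes rose and 36 fell. Rescaling by quantiles or equal totals moved the median of all genes by 0.0185 and 0.0229. With an offset of 8 reads Ccl24, the rarest member with 52 to 192 reads, stood at -1.42. Counts of 52 to 71 reads limit its precision.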
